A study of Mus musculus with 6 samples.

Results

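Serpina3n is a secreted serine protease inhibitor of the serpin family, and it was examined here across 6 brain sections of mice that carry human APOE3 (E3) or APOE4 (E4) in place of mouse Apoe. It is 1 of the 32288 genes counted in every section. It was chosen by its measured level, which was higher in the E4 than in the E3 section in each of the 3 conditions, so every E4 against E3 value of the whole section below describes that choice and carries no test. A serpin offers a protease a bait loop, is cut within it, and holds the protease in an inactive complex. Serpina3n is the mouse gene closest to human SERPINA3, which encodes alpha-1-antichymotrypsin, and granzyme B is among the proteases that the mouse protein inhibits. In the injured or inflamed brain it is known mainly as a gene of reactive astrocytes, and in models of amyloid deposition and demyelination also as a gene of disease-associated oligodendrocytes. Cytokines that act through STAT3, and glucocorticoids, are known inducers of the gene.

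All mice were female and homozygous for the human allele, which stands in the mouse Apoe locus under the mouse promoter. The sections came from an E4 mouse and an E3 mouse in each of 3 conditions: young at 3 months, aged at 24 months, and 5xFAD at 12 months. The 5xFAD strain adds transgenes, mutant human APP among them, under the Thy1 promoter, which is active in neurons, and develops amyloid plaques, so that in 5xFAD against young the transgenes and the difference in age cannot be told apart. Coronal sections of the right hemisphere were placed on Visium slides, in which each barcoded spot captures the polyadenylated RNA of several cells and each captured molecule is counted once by its unique molecular identifier (UMI). There was 1 section per group, so no test between 2 sections was possible, and the intervals given below are 95% intervals that cover counting error only.

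The 14524 spots used lay in the deposited tissue mask and had a barcode in the count matrix, with 1688 to 2773 spots and 20343701 to 37266232 UMIs per section and medians of 10081.5 to 15360 UMIs per spot. Levels are given as CPM, the Serpina3n UMIs per 1000000 UMIs of the same spots. Barcodes were present for 99.9% of mask spots in E3 5xFAD and for 75.9% to 86.0% elsewhere, and the header of the E3 5xFAD matrix named software version 2.0.0 where the remaining headers named 1.2.2. The names of the 5xFAD pair differed in their prefix from those of the other sections, and if that marks a slide or run, it cannot be told apart from 5xFAD. The labels also call the material non-neuronal brain cells, but the list of 7 cortical and hippocampal excitatory neuron markers summed to 3129 to 4837 CPM in the 6 sections, with none of them at 0. Spots were placed in 8 regions by clustering on genes other than Serpina3n and its cluster, and regions were named by marker genes.

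In the mm10 annotation (GENCODE vM21), Serpina3n lies on chromosome 12 from 104406729 to 104414329 on the forward strand, in 1 annotated transcript of 5 exons. It stands at the end of a tandem cluster of Serpina3 genes whose sequences are similar, so the uniqueness of its transcript was checked: none of the 411 stretches of 90 bases in its last 500 bases, where the assay reads transcripts, occurred in the transcript of another gene, and 14 of the 1975 stretches of the whole transcript did, all of them in Serpina3e-ps and 11 in Serpina3g as well. RefSeq places its start further upstream, at 104406646. The sequence just upstream of the RefSeq start is shown because both known inducers act through DNA motifs that can be looked for in it. The 188 bases of chr12:104406458-104406645 (RefSeq, GRCm38.p6, forward strand) read as follows, with capitals marking the only match to a searched motif.
Serpina3n upstream: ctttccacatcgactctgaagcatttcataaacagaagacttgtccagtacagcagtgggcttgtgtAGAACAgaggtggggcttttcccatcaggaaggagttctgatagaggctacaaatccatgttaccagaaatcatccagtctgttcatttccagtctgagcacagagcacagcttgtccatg
The capitals are AGAACA, the half-site of the glucocorticoid receptor, searched on both strands, and such a match was present in 12.6% of the 32851 annotated promoters over a window of the same length. The full palindrome, in which AGAACA and its reverse complement TGTTCT stand 3 bases apart, and the STAT motif TTCNNNGAA had no match in this window, and were found in 0.00913% and 5.49% of the promoters. These are matches of letters only.

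Serpina3n was a gene of moderate abundance in E4 sections and of low abundance in young and aged E3 sections. It had 120.2 CPM (117 to 124, 4343 UMIs) in E4 young and 18.2 CPM (16.8 to 19.6, 678 UMIs) in E3 young. It had 160.3 CPM (155 to 166, 3261 UMIs) in E4 aged and 36.3 CPM (34.2 to 38.4, 1133 UMIs) in E3 aged. It had 162 CPM (157 to 166, 5182 UMIs) in E4 5xFAD and 74.6 CPM (71.5 to 77.8, 2211 UMIs) in E3 5xFAD. The 3 E4 sections were thus all above the 3 E3 sections, and the lowest E4 section, young, was above the highest E3 section, 5xFAD. In sums of this kind, more cells that express the gene and more RNA per such cell cannot be told apart.

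The distance between the genotypes was largest as a ratio in young sections and smallest in 5xFAD sections. The log2 ratio of E4 over E3 was 2.72 (2.61 to 2.84, 6.61-fold) in young, 2.14 (2.05 to 2.24, 4.42-fold) in aged and 1.11 (1.04 to 1.19, 2.16-fold) in 5xFAD sections. As a difference in CPM, E4 exceeded E3 by 102 CPM (98.2 to 106) in young, 124 CPM (118 to 130) in aged and 86.9 CPM (81.5 to 92.3) in 5xFAD sections. The ratio thus moved by more than the difference in CPM did between young and 5xFAD. The E3 level was higher in 5xFAD by 56.4 CPM (53.0 to 59.9) than in young, and the E4 level by 41.3 CPM (35.6 to 47.0). The same pair of changes, as ratios, was 4.10-fold in E3 (log2 2.04) and 1.34-fold in E4 (log2 0.43). Aged against young gave 1.33-fold in E4 (log2 0.41) and 1.99-fold in E3 (log2 0.99). With 1 mouse per group, none of these differences between ratios was tested.

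The share of spots with the gene followed the level of the section. At least 1 UMI was found in 70.6% of spots in E4 young and 16.2% in E3 young, in 62.6% in E4 aged and 25.7% in E3 aged, and in 68.8% in E4 5xFAD and 40.3% in E3 5xFAD. After each spot was thinned to 3000 UMIs, which leaves out shallower spots, these shares were 27.7% in E4 young and 4.84% in E3 young, 33.6% in E4 aged and 8.12% in E3 aged, and 37.6% in E4 5xFAD and 19.0% in E3 5xFAD. When each spot was pooled with its neighbours, 52.7% of spots in E4 young were above 100 CPM and 3.63% in E3 young. Those shares were 68.9% in E4 aged and 10.6% in E3 aged, and 74.0% in E4 5xFAD and 27.8% in E3 5xFAD. All of these shares move with the level by which the gene was chosen, also after thinning, and do not show how evenly it is spread. The correlation (Pearson's r) of a spot's Serpina3n with that of its neighbours was 0.29 in E4 young and 0.29 in E3 young, 0.27 in E4 aged and 0.24 in E3 aged, and 0.31 in E4 5xFAD and 0.39 in E3 5xFAD.

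**Figure D1:**
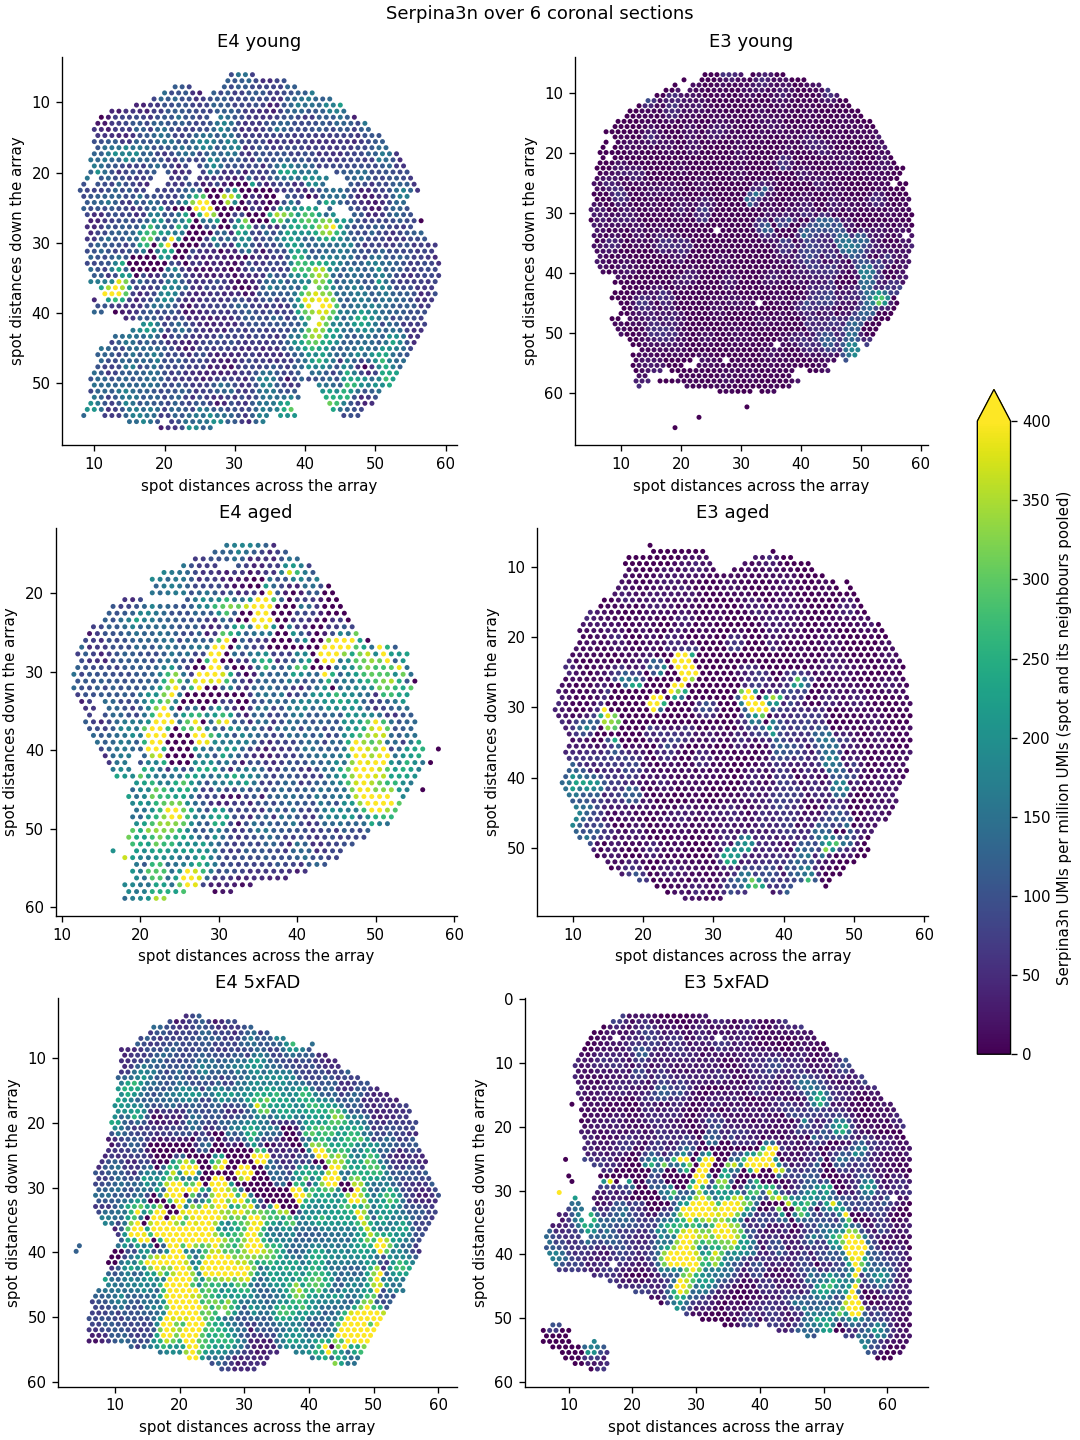
Serpina3n over the 6 sections: each dot is a spot at its place on the array (axes in spot distances), coloured by Serpina3n CPM of the spot and its neighbours pooled, with colours that stop at the top of the scale. The E3 young section is dark outside a band that holds the hippocampus, the E4 sections are lit over most of their area, and a patch over the thalamus is bright in both 5xFAD sections.

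Across regions the hippocampus and the fiber tracts stood highest and the cerebral nuclei lowest. The fiber tract spots were shallow, with section medians of 314 to 2280 UMIs per spot. Those of hippocampus were 6202 to 17823 and those of cortex 13129 to 19357 UMIs. The part of this depth, or of RNA from nearby tissue, in the fiber tract level was not tested. The geometric means over the 6 sections were 140.5 CPM in fiber tracts, 136 CPM in hippocampus, 79.0 CPM in meninges, 72.9 CPM in hypothalamus, 63.0 CPM in thalamus, 59.0 CPM in the ventricular system, 47.6 CPM in cerebral cortex and 33.3 CPM in cerebral nuclei. Set against the rest of its own section, the hippocampus was higher in 6 of 6 sections (mean log2 ratio 1.19 ± 0.94, SD, n = 6) and so were the fiber tracts (0.95 ± 0.51). Cerebral cortex (-0.90 ± 0.55) and cerebral nuclei (-1.17 ± 0.56) were lower in 6 of 6. Each of these 4 gave p = 0.031 in a two-sided exact permutation test that flips the signs of the sections, the smallest p that 6 sections allow, and 0.0625 after Benjamini-Hochberg adjustment over the 8 regions, so none passed 0.05. Hypothalamus (0.01 ± 0.55), thalamus (-0.21 ± 1.33), meninges (0.11 ± 0.09) and ventricular system (-0.32 ± 1.53) had no such common direction. Of the 28 pairs of regions, 12 had the same direction in all sections and none passed after adjustment, with 0.0729 the lowest adjusted value of the exact permutation test. In the order above, fiber tracts and hippocampus differed by 0.05 ± 1.09 on the log2 scale, less than their spread, and the same held for meninges and hypothalamus (0.12 ± 0.46), hypothalamus and thalamus (0.21 ± 1.41), thalamus and ventricular system (0.10 ± 1.75), and ventricular system and cortex (0.31 ± 1.82).

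**Figure D2:**
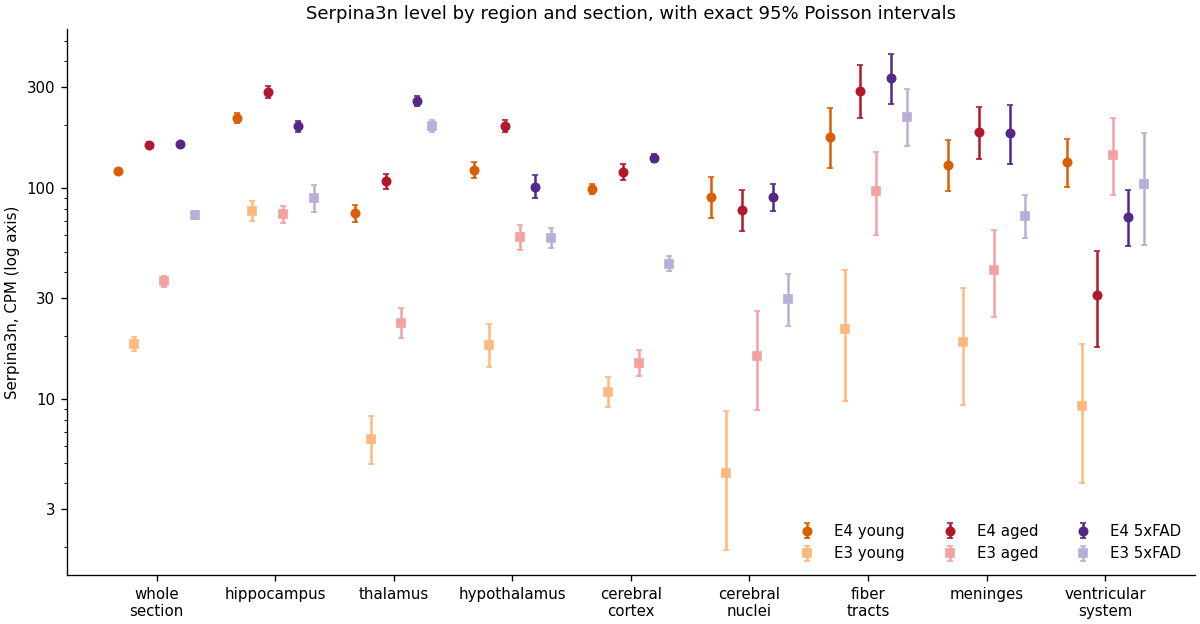
Serpina3n CPM (log axis) in the whole section and in 8 regions: dark circles are E4 and light squares E3 sections, and bars are exact 95% Poisson intervals. E4 lies above E3 in all regions and conditions other than the ventricular system of aged and 5xFAD sections, and the thalamus of E3 5xFAD stands close to that of E4 5xFAD.

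The hippocampus was the region of highest Serpina3n in the E3 young section. It held 215 CPM (204 to 227) in E4 young and 77.7 CPM (69.5 to 86.6) in E3 young, 285 CPM (267 to 304) in E4 aged and 75.3 CPM (68.3 to 82.7) in E3 aged, and 197 CPM (185 to 209) in E4 5xFAD and 89.3 CPM (76.8 to 103) in E3 5xFAD. The 3 E3 values overlapped in their intervals. As sums, 5xFAD against young gave log2 0.20 (-0.07 to 0.47) in E3 and -0.13 (-0.25 to -0.01) in E4. As a mean over spots, which weights shallow and deep spots alike, the same changes were 0.91 in E3 and 0.093 in E4, so that the size of the E3 change rests on how spots are weighted. The hippocampus was 2.17-fold above cortex in E4 young and 7.16-fold in E3 young. It held 31.2% of the Serpina3n UMIs of the E4 young section beside 17.4% of its UMIs of all genes, and 48.4% beside 11.3% in the E3 young section.

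Within the hippocampus the genotypes differed in which subfield was high. The spots led by C1ql2, Dsp and Lct, genes of the dentate gyrus, had 280.2 CPM (258 to 303) in E4 young and 58.9 CPM (46.5 to 73.5) in E3 young, 366 CPM in E4 aged and 55.4 CPM in E3 aged, and 230.3 CPM in E4 5xFAD and 50.2 CPM in E3 5xFAD. The spots led by Spink8 and Fibcd1, genes of CA1, had 156 CPM (143 to 170) in E4 young and 89.1 CPM (75.6 to 104) in E3 young, 190.0 CPM in E4 aged and 83.6 CPM in E3 aged, and 180 CPM in E4 5xFAD and 144 CPM (119 to 174) in E3 5xFAD. In these spots the E3 level was thus higher in 5xFAD than in young, with intervals apart, while in the C1ql2-led spots the E3 intervals of young and 5xFAD (36.5 to 67.5) overlapped. In every E4 section the C1ql2-led spots were thus above the Spink8-led ones, and in every E3 section below them, and this difference between genotypes was not tested. A smaller cluster led by Homer3 and Neurod6 held 285 CPM in E4 young and 82.2 CPM in E3 young.

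Of the 8 regions, the thalamus had the largest log2 ratio of 5xFAD over young in either genotype. It was low in both young sections, at 76.0 CPM (69.0 to 83.6) in E4 and 6.46 CPM (4.91 to 8.35) in E3. In aged sections it had 108 CPM (99.3 to 117) in E4 and 23.0 CPM (19.4 to 27.1) in E3. In 5xFAD sections it had 259 CPM (245 to 273) in E4 and 198 CPM (185 to 211) in E3, and E4 over E3 fell to 1.31-fold, against 11.8-fold in young. Relative to young, the 5xFAD level was 3.40-fold in E4 (log2 1.77) and 30.6-fold in E3 (log2 4.94), yet as a difference it was 183 CPM (167 to 199) in E4 and 191 CPM (178 to 205) in E3. The size of 2 of these ratios rests on how spots are weighted. As a mean over spots, the log2 ratio of E4 over E3 in 5xFAD thalamus was 0.72, against 0.39 as sums. That of 5xFAD over young in E4 was 2.15, against 1.77 as sums. The thalamus held 39.0% of all Serpina3n UMIs of the E3 5xFAD section in 13.6% of its spots. Spots led by Prkcd, a gene of the relay nuclei, had 318 CPM (293 to 344) in E4 5xFAD and 297 CPM (274 to 320) in E3 5xFAD, which overlapped. Spots led by Gbx2, a thalamic transcription factor, had 223 CPM (207 to 241) in E4 5xFAD and 96.7 CPM (84.0 to 111) in E3 5xFAD, which did not.

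In an additive model of genotype and condition fitted across all genes to the 6 sums of each region (edgeR's quasi-likelihood test, Benjamini-Hochberg adjustment over all genes tested), Serpina3n rose in 5xFAD against young thalamus by log2 3.03 (SE 0.53, adjusted p = 0.0120), where 2.00% of the 13447 genes tested passed in either direction. It also rose in fiber tracts by log2 1.74 (SE 0.36, adjusted p = 0.00509), where 0.648% of genes passed. The 6 fiber tract sums rest on 9 to 55 Serpina3n UMIs. Both calls were lost with DESeq2 (adjusted p = 0.0964 in thalamus and 0.895 in fiber tracts), and that of the fiber tracts also without E3 young (log2 0.99) or E3 5xFAD (log2 1.06). In cortex the same change was 1.09 (SE 0.33, adjusted p = 0.272, 1.12% of genes called), in meninges 1.13 (SE 0.29, adjusted p = 0.0935, 0.493%), in the whole section 1.15 (SE 0.35, adjusted p = 0.307, 0.886%), in hypothalamus 0.47 (adjusted p = 0.708, 0.442%), in cerebral nuclei 0.52 (adjusted p = 0.553, 1.20%) and in hippocampus -0.07 (adjusted p = 0.935, 0.964%), and edgeR called none of these. With a section left out, edgeR did call cortex without E4 aged (log2 0.90), E3 aged (0.92) or E4 5xFAD (1.88), meninges without E4 young (1.83), E4 aged (1.07), E3 aged (1.07) or E4 5xFAD (1.79), cerebral nuclei without E4 young (2.46) or E4 5xFAD (1.79), and hypothalamus without E4 5xFAD (1.17). The model has no term for a change that differs between genotypes, and the 2 thalamus ratios above enter it as 1 mean with their distance as error.

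In both genotypes the aged section had more Serpina3n in the hypothalamus than the young one. The hypothalamus held 198 CPM (185 to 211) in E4 aged against 122 CPM (112 to 133) in E4 young, and 58.5 CPM (50.9 to 67.0) in E3 aged against 18.1 CPM (14.2 to 22.8) in E3 young. Over the whole section, 13 hypothalamic peptide neuron markers summed to 2222 CPM in E4 aged against 589 CPM in E4 young. In E3 they summed to 1509 CPM in aged against 901 CPM in young. Age and the part of the hypothalamus that was cut can thus not be told apart. Clustering without centring by section gave 501 hypothalamus spots in E4 young in place of 245. Aged over young was 1.62-fold in E4 and 3.23-fold in E3, and the model gave log2 1.01 (SE 0.25) with an adjusted p of 0.147 by edgeR, which did not pass, in a region where 0.267% of genes did. It passed without the filter on low counts (adjusted p = 3.1e-12), without E4 5xFAD (log2 1.02) and without E3 5xFAD (log2 1.02), and without E3 young the change was 0.54 and did not pass. The spots led by Pmch and Hcrt, neuropeptide genes of the lateral hypothalamus, had 235 CPM (218 to 253) in E4 aged against 128 CPM (115 to 141) in E4 young, and 91.2 CPM (78.7 to 105) in E3 aged against 23.3 CPM (17.1 to 30.9) in E3 young. The spots led by Nts and Baiap3 had 137 CPM in E4 aged against 109 CPM in E4 young, and 13.8 CPM (8.57 to 21.2) in E3 aged against 12.8 CPM (8.28 to 18.9) in E3 young, and the E3 intervals overlapped. In 5xFAD the hypothalamus had 102 CPM (89.4 to 115) in E4 and 57.9 CPM (51.9 to 64.4) in E3, so that the E4 level was the lowest of the 3 E4 sections. In the other regions the aged against young change did not pass by edgeR either, with an adjusted p of 0.264 in meninges (0.773% of genes called), 0.616 in fiber tracts (0.0224%), 0.95 in thalamus (0.156%), 0.958 in hippocampus (0.372%), 0.962 in cortex (0.0201%), 0.965 in cerebral nuclei (0.211%) and 0.998 in the ventricular system (0%). With a section left out it did pass in thalamus without E4 young (log2 2.59), E4 5xFAD (0.96) or E3 5xFAD (0.96), in fiber tracts without E4 young (2.45) or E3 aged (1.08), and in cerebral nuclei without E4 young (2.14). In the whole section 0 of 16477 genes passed (0% called), with 715 at an unadjusted p under 0.05 and 38 called by DESeq2.

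Cerebral cortex was several-fold higher in E4 than in E3 in every condition. It held 99.1 CPM in E4 young and 10.8 CPM in E3 young (9.14-fold), 119 CPM in E4 aged and 14.9 CPM in E3 aged (8.01-fold), and 138 CPM in E4 5xFAD and 43.8 CPM in E3 5xFAD (3.16-fold). The E4 aged value comes from 194 cortex spots, of which 144 lie in 1 cluster, against 734 to 959 in the other sections. By layer, the 5xFAD level was above the young one in deep spots of both genotypes, and below it in the superficial spots of E4 that were led by Lamp5. Spots led by Trbc2, Cplx3 and Ccn2, genes of layer 6, had 197 CPM (181 to 214) in E4 5xFAD against 117 CPM (106 to 128) in E4 young, and 67.6 CPM (56.1 to 80.8) in E3 5xFAD against 9.94 CPM (6.96 to 13.8) in E3 young. Spots led by Lamp5, a gene of superficial layers, had 70.8 CPM (58.2 to 85.2) in E4 5xFAD against 99.4 CPM (89.3 to 110.3) in E4 young, and 25 CPM (18.0 to 34.0) in E3 5xFAD against 11.9 CPM (7.95 to 17.0) in E3 young. They numbered 82 in E4 5xFAD and 175 in E4 young, and whether spots changed cluster with 5xFAD was not tested. Spots led by Kcnab3 and Rspo1 had 84.3 CPM (74.0 to 95.7) in E4 5xFAD against 87.7 CPM (75.7 to 101) in E4 young. In E3 those had 20.9 CPM in 5xFAD against 6.83 CPM in young.

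**Figure D3:**
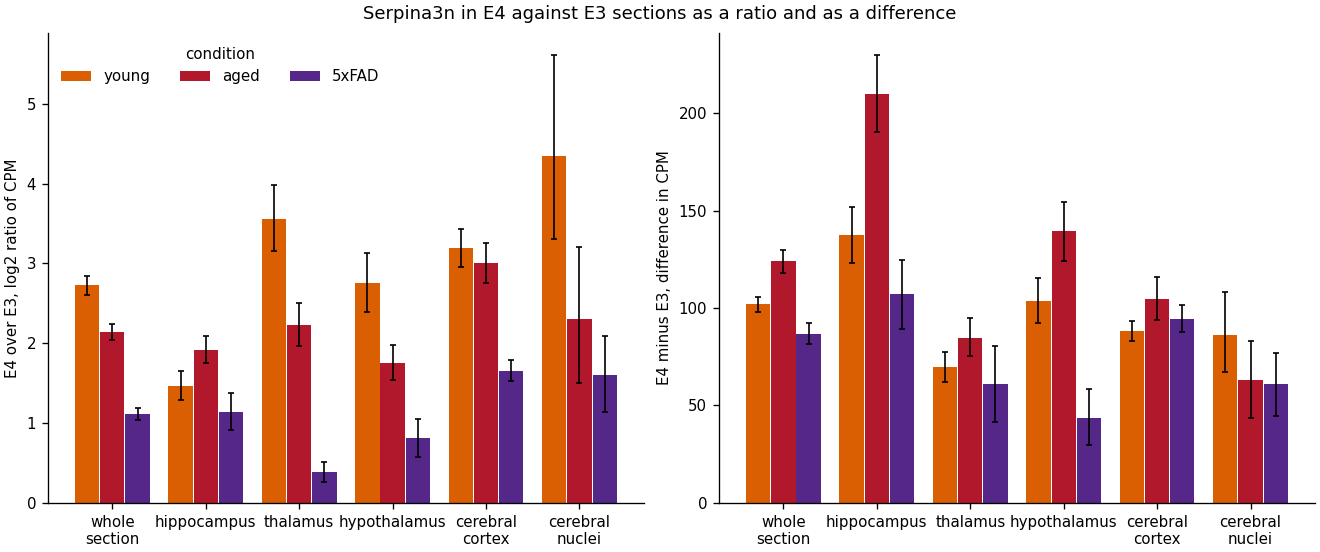
E4 against E3 for Serpina3n by region, on the left as the log2 ratio of CPM and on the right as the difference in CPM, with bars for young, aged and 5xFAD pairs and 95% intervals for counting error. In the thalamus the ratio was 3.56 in young, 2.23 in aged and 0.39 in 5xFAD, while the differences were 69.6, 84.9 and 61.1 CPM with overlapping intervals between young and 5xFAD.

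Other regions had fewer counts. Cerebral nuclei had 90.8 CPM in E4 young and 4.46 CPM (8 UMIs) in E3 young, a 20.4-fold ratio, and 90.6 CPM in E4 5xFAD and 29.8 CPM in E3 5xFAD. The spots named meninges were led by the pituitary hormone genes Prl and Gh together with meningeal Ptgds, Fmod and Dcn, and had 129 CPM in E4 young and 18.7 CPM in E3 young, 184 CPM in E4 aged and 40.7 CPM in E3 aged, and 182 CPM in E4 5xFAD and 73.8 CPM in E3 5xFAD. The ventricular system went against the other regions: it had 133 CPM in E4 young and 9.30 CPM in E3 young, but 31.1 CPM (17.7 to 50.4) in E4 aged and 144 CPM (92.3 to 214) in E3 aged, and 73.2 CPM in E4 5xFAD and 104 CPM in E3 5xFAD. Of the 24 Serpina3n UMIs in the ventricular spots of E3 aged, 18 lay in 1 spot, and without that spot the level was 40.6 CPM, against 27.9 CPM in E4 aged without its highest spot. Ttr, the main transcript of choroid plexus, was at 19544 CPM in the ventricular spots of E4 young and between 110690 and 216919 CPM in those of the other sections.

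Most genes around Serpina3n were at similar levels in the genotypes, Ak7 had the highest log2 ratio of E4 over E3, and a few sparse genes were lower in E4. Of the 9 other Serpina3 cluster genes, 3 reached 20 UMIs over all sections: Serpina3g with 75, Serpina3k with 44 and Serpina3c with 25 UMIs. Serpina3g had 0.498 CPM in E4 young and 0.322 CPM in E3 young, 0.541 CPM in E4 aged and 0.224 CPM in E3 aged, and 0.468 CPM in E4 5xFAD and 0.405 CPM in E3 5xFAD. Serpina3k went the other way in young and aged sections. It had 0.221 CPM in E4 young and 0.644 CPM in E3 young, 0 CPM in E4 aged and 0.384 CPM in E3 aged, and 0 CPM in both 5xFAD sections. Of 32 further neighbours on chromosome 12, 20 were tested for E4 against E3 over all conditions and edgeR called none, with a median log2 of 0.03, where 0.0182% of 16477 genes were called (none of them from these lists). Of the cluster, Serpina3k had a log2 of -2.08 (SE 0.80) and Serpina3g of 0.64 (SE 0.38), and neither was called. The lowest log2 values of the neighbours came from sparse genes. They were -2.09 (SE 0.80) for Serpina1d, -1.81 (SE 0.86) for Serpina1e and -1.45 (SE 0.57) for Serpina1c, with 37, 47 and 52 UMIs in total. So few calls among all genes say little of any single neighbour. Ak7, an adenylate kinase of cilia that lies 1290 kb from Serpina3n, had the highest log2 among them and is named for that value: it was at 4.37 CPM in E4 young and 1.85 CPM in E3 young, 2.11 CPM in E4 aged and 0.640 CPM in E3 aged, and 1.5 CPM in E4 5xFAD and 0.439 CPM in E3 5xFAD. Its log2 of E4 over E3 was 1.51 (SE 0.22, edgeR's unadjusted p = 0.00044, adjusted p = 0.573), and it was thus higher in E4 in each condition without passing. Ak7 had 13 to 158 UMIs per section. The 7 ependymal markers were also higher in E4 in each condition. They summed to 77.5, 33.7 and 39.6 CPM in E4 and to 53.2, 26.9 and 26.1 CPM in E3 sections of young, aged and 5xFAD mice. Their part in the Ak7 values was not tested. Ifi27l2a, also higher in E4 in each condition, had a log2 of 0.85 (SE 0.29). Ddx24, an RNA helicase, was at 159, 163 and 165 CPM in E4 and at 156, 155 and 171 CPM in E3 sections of young, aged and 5xFAD mice. Glrx5, an enzyme of iron-sulfur cluster assembly, was at 95.3, 94.9 and 103 CPM in E4 and at 95.9, 95.5 and 88.7 CPM in E3. Papola, a poly(A) polymerase, was at 64.6, 63.6 and 68.6 CPM in E4 and at 61.9, 65.8 and 62.4 CPM in E3. Of 15 serpins from other loci that were tested, none was called, and the highest of them did not follow Serpina3n: Serpine2, an inhibitor of thrombin and plasminogen activators, was at 193, 212 and 189.8 CPM in E4 and at 182, 164 and 168 CPM in E3, and Serpini1, the neuronal neuroserpin, at 228, 148 and 215 CPM in E4 and at 187, 233 and 210.5 CPM in E3. Of 9 known or likely serpin target proteases, 4 to 7 were at 0 in a given section, with Ctsg at 0 UMIs in all of them.

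The lists of inducers and cell markers had medians near 0 between genotypes, with some members higher in E4. For E4 against E3 over the conditions, edgeR called 0 of 14 tested genes of the IL6 family and STAT3 (median log2 0.08), 0 of 12 of the glucocorticoid response (0.11), 0 of 13 astrocyte genes (-0.00), 0 of 19 reactive astrocyte genes (0.11), 0 of 12 mature oligodendrocyte genes (0.13) and 0 of 6 disease-associated oligodendrocyte genes (0.01), with a median of -0.00 over all genes and 892 of 16477 genes at an unadjusted p under 0.05. Over all genes edgeR called 3 of 16477 (0.0182%), so that 0 calls in lists of this size say little of their members. Stat3 was at 24.7, 33.4 and 40.2 CPM in E4 and at 26.8, 29.5 and 36.0 CPM in E3 sections of young, aged and 5xFAD mice. Osmr, the receptor of oncostatin M, was at 1.8, 3.10 and 8.17 CPM in E4 and at 1.93, 2.56 and 4.42 CPM in E3. Bcl3, a nuclear regulator of NF-kappaB signalling, was higher in E4 in each condition, at 0.332, 0.885 and 2.43 CPM in E4 and at 0.134, 0.480 and 1.05 CPM in E3, and its log2 of 1.09 (SE 0.28) did not pass by edgeR (unadjusted p = 0.0078, adjusted p = 0.873). Complement C4b was at 12.6, 36.5 and 149.9 CPM in E4 and at 13.4, 32.2 and 78.0 CPM in E3. Gfap, the intermediate filament of astrocytes, was at 50.9 CPM in E4 young and 44.3 CPM in E3 young, 87.6 CPM in E4 aged and 87.8 CPM in E3 aged, and 345 CPM in E4 5xFAD and 183 CPM in E3 5xFAD. The 13 astrocyte markers summed to 2570 CPM in E4 young and 2743 CPM in E3 young, 2539 CPM in E4 aged and 2577 CPM in E3 aged, and 2684 CPM in E4 5xFAD and 2674 CPM in E3 5xFAD. In young and aged sections the Gfap and astrocyte values of the 2 genotypes were close to each other where those of Serpina3n were several-fold apart, whereas in the 5xFAD pair Gfap, C4b, Osmr and Bcl3 were all higher in E4, as Serpina3n was by 2.16-fold. No link between these genes and the Serpina3n values was tested.

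In the thalamus, where Serpina3n rose with 5xFAD, glial genes moved with it. Of disease-associated microglia genes, 18 of 18 tested rose (median log2 3.11), among them the cystatin Cst7 (9.34, SE 0.24), the receptor Trem2 (3.63, SE 0.13) and the lysosomal Cd68 (3.76, SE 0.18), where 1.81% of 13447 genes rose. Of reactive astrocyte genes, 7 of 14 rose (median 1.32), among them Gfap (3.98, SE 0.14), Vim (1.64, SE 0.14) and S100a6 (1.67, SE 0.15). Of disease-associated oligodendrocyte genes, 3 of 6 rose (median 1.01): complement C4b (4.22, SE 0.15), B2m (1.83, SE 0.12) and H2-D1 (1.56, SE 0.12). Of homeostatic microglia genes 8 of 11 rose (median 1.41), of astrocyte genes 1 of 13, Aqp4 (median -0.02), and of mature oligodendrocyte genes 0 of 12 (median -0.23). Of the IL6 family and STAT3 genes 2 of 10 rose, Osmr (1.81, SE 0.38) and Stat3 (0.65, SE 0.14), and of the glucocorticoid response 0 of 11 (median -0.15), beside a median of -0.01 over all genes. Of the other serpins 0 of 12 were called, and of 14 neighbours on chromosome 12 2 rose, the interferon-induced Ifi27l2a (3.33, SE 0.28) and Ifi27 (0.87, SE 0.13). All calls are edgeR's at an adjusted p of 0.05. Among signs of RNA quality, 2 of 5 genes fell where 0.186% of all genes did, Malat1 (by 1.42 on the log2 scale) and Gm42418 (by 1.10), and 1 of 13 mitochondrially encoded genes fell. Their part in the Serpina3n value was not tested.

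Spot by spot, Serpina3n went with glial markers in the thalamus and cortex of 5xFAD sections, and no such relation was seen in those of young ones. E3 young held only 58 Serpina3n UMIs in 533 thalamus spots and 157 in 901 cortex spots, so a low rho there says little. E4 young held 423 and 1568 UMIs in these regions. Spearman's rho between the share of a spot's UMIs in Serpina3n and the share in a marker list is a description over spots of 1 section, which share library and depth. In the thalamus, rho with disease-associated microglia genes was 0.32 in E4 5xFAD and 0.60 in E3 5xFAD (443 and 377 spots), and with reactive astrocyte genes 0.36 in E4 5xFAD and 0.53 in E3 5xFAD, whereas in young and aged thalamus both lists were between 0.0057 and 0.13. After thinning to 3000 UMIs, which left 372 and 360 spots, the disease-associated microglia values were 0.26 in E4 5xFAD and 0.46 in E3 5xFAD. In cortex, rho with reactive astrocyte genes was 0.39 in E4 5xFAD and 0.15 in E3 5xFAD, with mature oligodendrocyte genes 0.40 in E4 5xFAD and 0.12 in E3 5xFAD, and with disease-associated microglia genes 0.35 in E4 5xFAD and 0.17 in E3 5xFAD. After thinning these were 0.19, 0.22 and 0.22 in E4 5xFAD and 0.09, 0.15 and 0.08 in E3 5xFAD. These 3 lists had rho between -0.11 and 0.07 in the cortex of young and aged sections. The cortex values pool layers that differ in Serpina3n, at 70.8 CPM in Lamp5-led and 197 CPM in Trbc2-led spots of E4 5xFAD. Layer and marker content can thus not be told apart in them, nor in the other cortex values by marker below. The markers of resting astrocytes had a rho of 0.05 in E4 5xFAD cortex and -0.03 in E3 5xFAD cortex. Over all spots of a section every list stayed between -0.28 and 0.29, and spot depth itself had 0.13 to 0.37.

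The size of these relations in CPM can be read from the 25% of a region's spots that are richest in a list and the 25% that are poorest in it, among spots with at least 1000 UMIs. In the 5xFAD thalamus, spots richest in disease-associated microglia genes had 432 CPM Serpina3n in E4 and 460.2 CPM in E3, and the poorest spots 162 CPM in E4 and 41.7 CPM in E3. Over the thalamus as a whole, spots rich in that list thus had about the same Serpina3n in both genotypes, and spots poor in it had more in E4. The rich spots were also shallower, with medians of 5437.5 UMIs in the richest and 15064.5 in the poorest spots of E4 5xFAD, and 8854 and 12517.5 in those of E3 5xFAD. By reactive astrocyte genes the richest spots had 429 CPM in E4 5xFAD and 491 CPM in E3 5xFAD, and the poorest 152 CPM in E4 5xFAD and 60.0 CPM in E3 5xFAD. The same split inside the Prkcd-led spots alone, by disease-associated microglia genes, gave 476 CPM in the richest and 239.7 CPM in the poorest spots of E4 5xFAD, and 519 CPM and 93.5 CPM in those of E3 5xFAD. In the Gbx2-led spots it gave 389.7 CPM and 117 CPM in E4 5xFAD, and 213 CPM and 19.6 CPM in E3 5xFAD. There E4 was thus above E3 in the rich spots as well. In cortex, by reactive astrocyte genes, it was 236 CPM against 88.5 CPM in E4 5xFAD and 83.6 CPM against 33.2 CPM in E3 5xFAD, while rich and poor spots of young cortex were alike, at 103 CPM and 101 CPM in E4 young and 9.50 CPM and 10.7 CPM in E3 young.

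**Figure D4:**
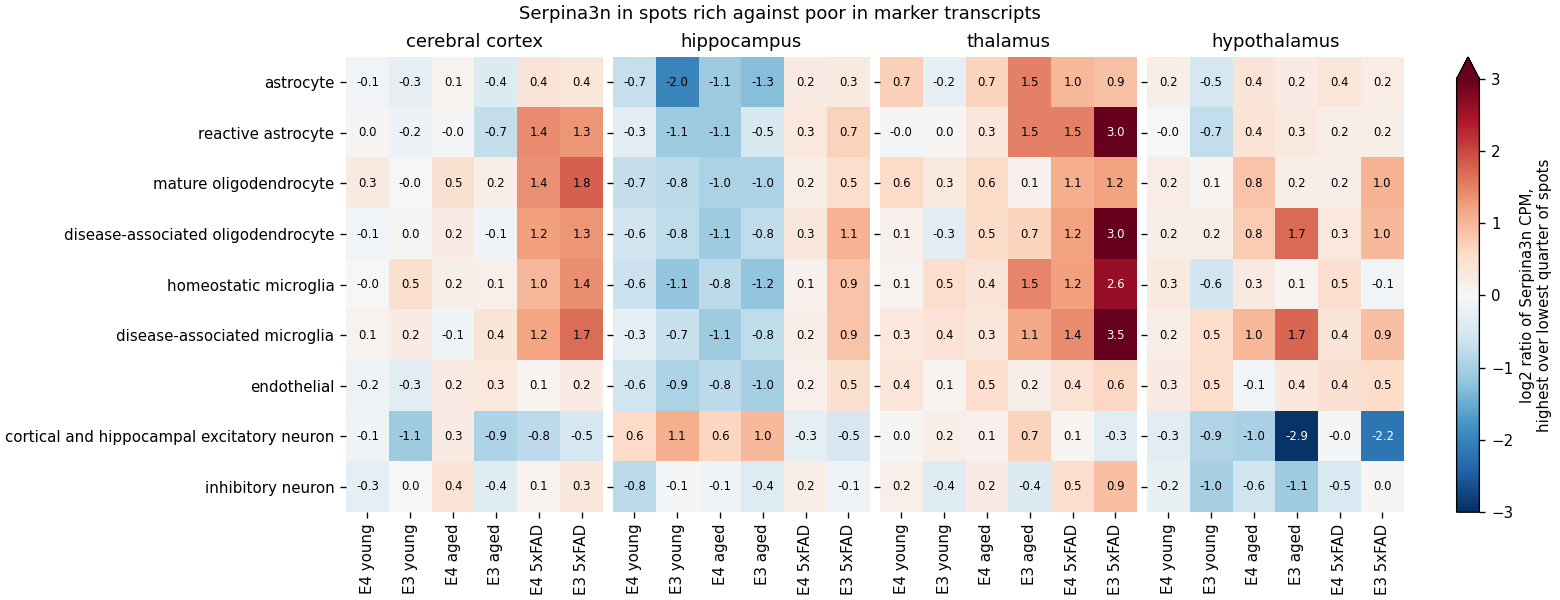
Log2 ratio of Serpina3n CPM in the 25% of spots richest in a marker list over the 25% poorest, for 9 lists (rows), 6 sections (columns) and 4 regions (panels), with red for higher and blue for lower in rich spots. The 5xFAD columns of cortex and thalamus are red for astrocyte reaction, oligodendrocyte and microglia lists, and the young and aged columns of the hippocampus are blue for glial lists and red for excitatory neurons.

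The hippocampus showed the opposite order in young and aged sections. Spots rich in excitatory neuron genes had more Serpina3n than poor ones, at 232 CPM against 156 CPM in E4 young, 91.9 CPM against 43.1 CPM in E3 young, 316 CPM against 202 CPM in E4 aged and 91.9 CPM against 46.8 CPM in E3 aged. By astrocyte genes it was 166 CPM in rich against 269 CPM in poor spots of E4 young, 26.1 CPM against 104 CPM in E3 young, 164 CPM against 348 CPM in E4 aged and 39.8 CPM against 96.2 CPM in E3 aged. The same spots differed in depth, with medians of 31787 UMIs in the neuron-rich and 9217 in the neuron-poor spots of E4 young. The correlation (rho) with astrocyte genes, which was -0.16 in E4 young, -0.41 in E3 young, -0.39 in E4 aged and -0.38 in E3 aged, was between -0.13 and -0.04 after thinning, closer to 0 at equal depth. In the 5xFAD hippocampus rho with both lists was between -0.08 and 0.05, and by Gfap the spots with 0, 1 to 2 and 3 or more UMIs had 194, 187 and 198 CPM in E4 5xFAD and 110.4, 83.6 and 81.6 CPM in E3 5xFAD, with overlapping intervals. In the hypothalamus of E4 aged, E3 aged and E3 5xFAD, Serpina3n went with the peptide neuron genes. Spots rich in them had 244 CPM against 143 CPM in poor spots of E4 aged, 84.3 CPM against 14.3 CPM in E3 aged and 90.7 CPM against 28.1 CPM in E3 5xFAD. In E4 5xFAD it did not, at 97.6 CPM in rich against 106 CPM in poor spots. Values of the young sections are not given here, and the part of spot depth was not tested.

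Cst7, which was all but absent outside the 5xFAD sections (0.083 to 1.92 CPM in young and aged, 93.8 CPM in E4 5xFAD and 56.3 CPM in E3 5xFAD), marks microglia near plaques, and the plaques themselves were not used here. In E4 5xFAD thalamus, Serpina3n was at 219 CPM (197 to 243) in spots without Cst7 UMIs, 247 CPM (226 to 269) in spots with 1 to 2 and 328 CPM (298 to 361) in spots with 3 or more. In E3 5xFAD thalamus it was at 86.2 CPM (72.2 to 102), 180 CPM (158 to 203) and 342 CPM (312 to 374) in the same bins. The intervals of the genotypes were thus apart in spots without Cst7 and overlapped in the spots richest in it. Depth moved with the bins, with medians of 5556.5 UMIs per spot in the lowest and 14754 in the highest bin of E4 5xFAD thalamus, and 10969.5 and 13541 in those of E3 5xFAD, and its part was not tested. In cortex the bins were 111, 131 and 173 CPM in E4 5xFAD and 36.0, 48.7 and 88.7 CPM in E3 5xFAD, and E4 stayed above E3 in all of them. In E4 5xFAD hippocampus the bins did not separate, at 206, 186 and 209 CPM.

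Distance from Cst7-rich spots, those with 3 or more UMIs, gave the same order in thalamus and cortex and not in hippocampus or hypothalamus. In E4 5xFAD thalamus Serpina3n was at 328 CPM in these spots, 252 CPM (231 to 275) in spots next to one and 212 CPM (190.1 to 236) in all others. In E3 5xFAD thalamus it was at 342 CPM, 199 CPM (176 to 223) and 65.4 CPM (53.2 to 79.6). In cortex the 3 places had 173, 133 and 97.4 CPM in E4 5xFAD and 88.7, 52.6 and 36.6 CPM in E3 5xFAD. In E4 5xFAD hippocampus they had 209, 212 and 179 CPM. The hypothalamus had only 1 Cst7-rich spot in E4 5xFAD and 2 in E3 5xFAD, and its spots next to one had 86.1 CPM in E4 and 23.0 CPM in E3, against 101 CPM in E4 and 59.5 CPM in E3 in all others. With Gfap in place of Cst7, cortex spots with 0, 1 to 2 and 3 or more UMIs had 73.1, 97.9 and 151 CPM in E4 5xFAD and 25.5, 38.1 and 60.5 CPM in E3 5xFAD. In young cortex the Gfap bins had 97.0, 104 and 78.1 CPM in E4 and 10.3, 12.3 and 7.75 CPM in E3, with overlapping intervals. The last of these values rests on 1 Serpina3n UMI in 9 spots. In E4 young cortex the gene was thus present at a like level in spots with and without Gfap UMIs.

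**Figure D5:**
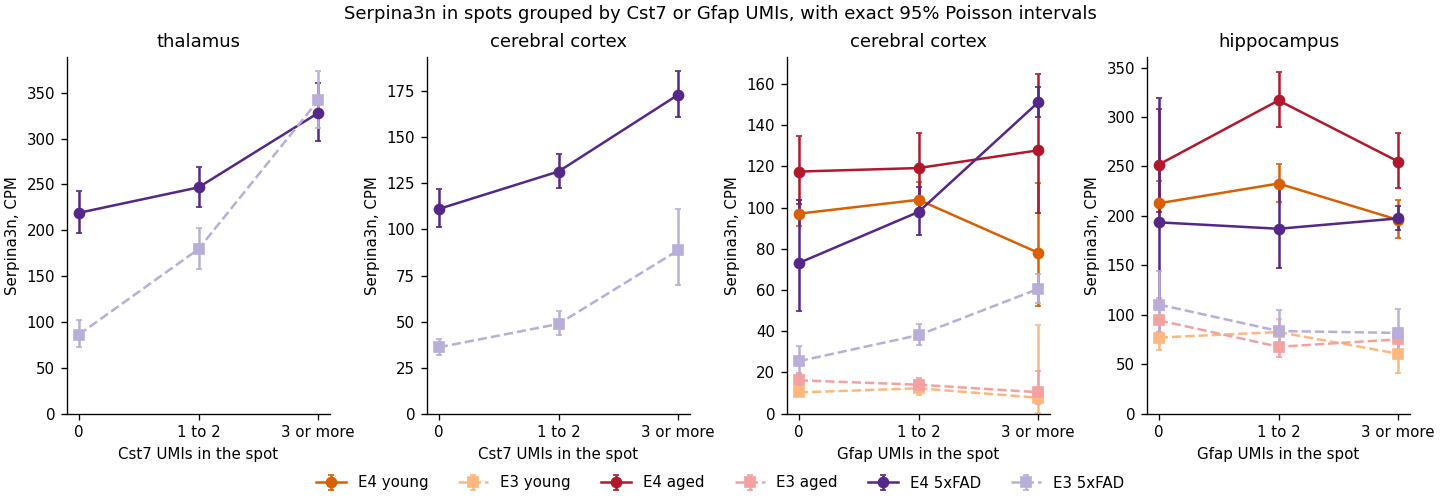
Serpina3n CPM in spots with 0, 1 to 2, and 3 or more UMIs of Cst7 (thalamus and cortex of the 5xFAD sections) or of Gfap (cortex and hippocampus of all sections), with exact 95% Poisson intervals, circles and full lines for E4 and squares and broken lines for E3. The 5xFAD lines climb with Cst7 and, in cortex, with Gfap, and the 2 genotypes meet in the thalamus spots richest in Cst7.

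By the median over the 6 sections, no single gene followed Serpina3n closely over spots. The median spot held 0 Serpina3n UMIs in each E3 section and 1 in each E4 section, which limits how high r can be. Among 11162 genes found in at least 5% of the spots of every section, the highest median Pearson r over the 6 sections was 0.15, for Cabp7, a calcium-binding protein of the hippocampus. The next were Gria1, Wipf3, Cnih2, Gabra5, Cpne6, Ncdn, Mt2, Mt3 and Zbtb20, down to 0.11, of which Gria1 and Cnih2 belong to AMPA-type glutamate receptors and Mt2 and Mt3 are metallothioneins. Of these 10, only Mt2 was among the 10 highest once each gene was centred within regions. Within cortex spots the highest were Ctsz, Phldb1, Lyz2, Cryab, Tmsb4x, Fth1, Atpif1, Cd52, Fcrls and H2-K1, with medians of 0.12 down to 0.09. Of these, Lyz2, Cd52 and Fcrls belong to microglia or macrophages. Fth1, the ferritin heavy chain, had an r of 0.33 in E4 5xFAD cortex and 0.13 in E3 5xFAD cortex. Taken alone, the 5xFAD cortices were led by Gfap, with an r of 0.36 in E4 and 0.23 in E3. C4b (0.36 in E4 and 0.20 in E3) and Ctsd (0.34 and 0.21) were also among the 5 highest genes of both.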

How the data were processed

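The authors deposited, for each section, a count matrix of UMIs per gene and spot and a tissue mask. Per the labels, the submitters' processing notes name Space Ranger 1.3.0, STAR 2.5.1b and the builds mm10 and GRCh38. The values are raw counts, and spots used were in both the mask and the matrix (14524 of 16979 mask spots, and 2455 had no barcode in the matrix). Groups came from the labels, with 1 section each.

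Counts were scaled to 10000 per spot and clustered with Seurat 5.3.0 (R 4.3.3, 3000 variable genes without Serpina3n and its gene cluster, 20 principal components centred by section, 20 neighbours, resolution 0.8), which gave 19 clusters in 8 named regions, a cluster led by Six3 and a small one led by habenula genes. Levels are CPM of summed counts with exact Poisson 95% intervals, ratios have exact conditional binomial 95% intervals (scipy 1.17.1), and regions were compared by exact sign permutation over 6 sections. The additive model of genotype and condition used edgeR 4.0.16 (TMM, filterByExpr, quasi-likelihood, 2 residual degrees of freedom), with DESeq2 1.42.0 as an alternative, and was tested on simulated data. Depth limits the fiber tracts, meninges and ventricular system most, with 8 to 72 Serpina3n UMIs per section.

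Serpina3n and the gene lists were chosen with earlier results of these data known. Named were Serpina3n, the chromosome 12 neighbours with the 3 highest levels (of those with at least 20 UMIs), in each other list at most 3 members past the threshold by p or else the 2 highest by level, and the 10 genes with the highest median r to Serpina3n over all spots and within cortex, among genes in at least 5% of the spots of every section. Serpina3g, Serpina3k, Stat3, Osmr, Gfap, Ctsd and Cst7 were also given by section after their values were seen. Serpina1c, Serpina1d and Serpina1e were named for their low log2 values. Alternatives changed the normalization, the filter, the clustering, the spots used and the sections used.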

Additional observations from a re-analysis of the deposited data

Results flagged for a closer look

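In the hypothalamus the 5xFAD against young ratio of Serpina3n pointed in opposite directions in the 2 genotypes, with log2 -0.26 in E4 and 1.68 in E3. E4 5xFAD had only 129 hypothalamus spots, against 245 in E4 young.

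The ventricular system differed between the groups in direction in 3 ways. Aged against young was -2.09 in E4 and 3.95 in E3, 5xFAD against young was -0.86 in E4 and 3.49 in E3, and E4 against E3 was 3.83 in young and -2.21 in aged sections. These sums hold 8 to 59 Serpina3n UMIs in 15 to 42 spots, and in E3 aged 75% of the UMIs lay in 1 spot. None of these differences between groups was tested.

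Barcodes outside the tissue mask also held Serpina3n, at 120.9 CPM in E4 young and 9.79 CPM in E3 young, at 118 CPM in E4 aged and 55.1 CPM in E3 aged, and at 114 CPM in E4 5xFAD (19.8 CPM from 1 UMI in E3 5xFAD). These barcodes entered no other value.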

How the results depend on the processing

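The log2 ratio of E4 over E3 of the whole section stayed above 0 in each condition under every alternative run. The alternatives reuse the sections by which the gene was chosen, so they lend this contrast no support. Each section being the only one of its group, leaving one out leaves the other of its condition, which is assumed to vary like the rest. No paired analysis was possible because each group holds 1 section. The alternatives that add the Six3-rich cluster to the fiber tracts, that leave out the spot of most Serpina3n UMIs, and that compare the richest and poorest 25% of spots were chosen after seeing the data.

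Without mitochondrial and haemoglobin counts in the denominator the levels were 139 CPM in E4 young, 21.0 in E3 young, 186 in E4 aged, 41.6 in E3 aged, 178 in E4 5xFAD and 84.1 in E3 5xFAD, and as a mean over spots 189.9 CPM in E4 aged, 46.6 in E3 aged, 213 in E4 5xFAD and 105 in E3 5xFAD. As a mean over spots the log2 ratio of E4 over E3 was 2.03 in aged and 1.01 in 5xFAD, of aged over young 0.67 in E4 and 1.41 in E3, and of 5xFAD over young 0.84 in E4 and 2.59 in E3, and without mitochondrial and haemoglobin counts the E4 5xFAD over young ratio was 0.36. Hippocampus E4 5xFAD over young became 0.093 as a mean over spots, and meninges E3 5xFAD over young -0.79 over core spots.

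The 5xFAD call in thalamus was lost with condition only (2.44, adjusted p 0.274) and DESeq2 (3.31, 0.0964), and that in fiber tracts with condition only (1.66, 0.350) and DESeq2 (1.89, 0.895). Without the filter on low counts, edgeR called cortex 5xFAD (1.08), hypothalamus aged (1.01) and 5xFAD (0.47) and meninges 5xFAD (1.10). With uncentred clustering hippocampus 5xFAD was 0.016. The cause of these changes was not tested.

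Leaving out a section in turn, aged against young ranged from 0.16 to 1.3 in the whole section, -0.25 to 0.87 in cortex, -0.12 to 0.47 in hippocampus, 0.11 to 2.59 in thalamus, 0.54 to 1.99 in hypothalamus, -0.34 to 2.14 in nuclei, 0.36 to 2.45 in fiber tracts, 0.49 to 1.58 in meninges and -1.23 to 3.48 in the ventricular system. 5xFAD against young ranged from 0.47 to 1.83 in the whole section, 0.38 to 1.88 in cortex, -0.28 to 0.24 in hippocampus, 1.87 to 4.54 in thalamus, -0.18 to 1.38 in hypothalamus, -0.016 to 2.46 in nuclei, 0.99 to 3.07 in fiber tracts, 0.60 to 1.83 in meninges and -0.85 to 3.89 in the ventricular system. Where a range holds both signs, an end of it is a reversal. Such ends were -0.25 (aged cortex, without E4 aged), -0.12 (aged hippocampus, without E4 aged) and 0.24 (5xFAD hippocampus, without E4 5xFAD), among others. Reversals inside the ranges included -0.08 (aged cortex, without E3 young), -0.07 (5xFAD hypothalamus, without E3 young) and -1.08 (aged ventricular system, without E3 aged).

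Genes called in the whole section were 0 for aged against young, but 21 without the filter, 1 with condition only, 38 with DESeq2 and 4 to 44 without a section. They were 146 for 5xFAD against young, 283 without the filter, 260 with DESeq2 and 27 to 239 without a section. They were 3 for E4 against E3, 6 without the filter, 13 with DESeq2 and 0 to 23 without a section.

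Between regions, reversed values were -0.038 (uncentred), -0.28 (mean over spots) and -0.029 (without the highest spot) for hypothalamus against the rest, and -0.18 (uncentred), -0.16 (core spots) and -0.053 (without the highest spot) for meninges against the rest. Among pairs they were -0.10 for ventricular system over cortex, -0.039 for fiber tracts over hippocampus and -0.012 for meninges over hypothalamus without the highest spot, -0.59 for fiber tracts with the Six3-rich cluster over hippocampus, -0.18 (core spots) and -0.015 (mean over spots) for thalamus over ventricular system, -0.13 (uncentred) and -0.21 (core spots) for meninges over hypothalamus, and -0.067 (core spots) for meninges over ventricular system. Median rho over the sections moved to 0.025 for mature oligodendrocyte, 0.0014 for oligodendrocyte precursor, -0.0010 for leptomeningeal, 0.0040 for ependymal and -0.023 for excitatory neuron genes after thinning, to 0.011 for leptomeningeal and 0.035 for ependymal genes with Pearson's r, and to 0.0098 for leptomeningeal, -0.029 for choroid plexus and 0.044 for ependymal genes in spots with at least 1000 UMIs. Of the 10 genes most like Serpina3n, 6 stayed with Spearman's rho and 1 within regions.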
